A study of Mus musculus with 2 samples.

Results

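Transcripts of 8 regulators of cytokine mRNA decay were followed in activated mouse macrophages: the CCCH zinc-finger genes Zfp36, Zfp36l1, Zfp36l2, Zc3h12a, Zc3h12c and Rc3h1, and the RNA-binding protein genes Elavl1 and Khsrp. Members were chosen by gene symbol. All 8 were found among the 16263 genes of each deposited table, 1 row each, and all passed the filter on low levels described below. The samples were 2 libraries of bone marrow-derived macrophages from C57BL/6 mice, 1 from wild type (WT) and 1 from SIRPalpha-/- animals (SIRPα-KO; SIRPα is an inhibitory myeloid receptor for CD47). Marrow cells of both genotypes were cultured for 5 days in M-CSF-conditioned medium, and then received IFNγ at 20 ng/ml and LPS at 100 ng/ml for 6 h with mCD47.ex present, so neither library is untreated. RNA was extracted from the mixed cells of 5 mice of each genotype, which leaves 1 library per genotype, no spread between animals and no test. The targeted allele and the ages of the mice are not given in these sources.

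Many cytokine mRNAs carry AU-rich elements or short stem-loops in their 3′ untranslated region (UTR) that keep the message short-lived. Tristetraprolin, the product of Zfp36, and its paralogues encoded by Zfp36l1 and Zfp36l2 bind AU-rich elements through tandem CCCH zinc fingers and recruit a deadenylase, which shortens the poly(A) tail. Regnase-1, encoded by Zc3h12a, is an endonuclease that cleaves stem-loop mRNAs, and Zc3h12c encodes a relative of it. Roquin-1, encoded by Rc3h1, binds stem-loops of the constitutive decay element type. Khsrp promotes decay of AU-rich messages, and Elavl1 encodes HuR, which mostly stabilizes them. In macrophages that meet LPS these proteins together set how long Tnf, Il6 and related messages last.

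Matches to the AU-rich word TATTTAT are shown first, for the members whose levels differed most and for Tnf and Il6. AU-rich elements are the class that the Zfp36 paralogues bind, whereas Regnase-1 and Roquin-1 act on stem-loops. The word occurs in 29.3% of 14779 annotated 3′ UTRs, and binding was not measured. Each window holds 30 bases from GENCODE M21 transcripts on GRCm38, 5′ to 3′, with the word in capitals. The Zfp36 window lies at chr7:28376959-28376988, that of Zfp36l1 at chr12:80108422-80108451, that of Zc3h12c at chr9:52114862-52114891 and that of Tnf at chr17:35199678-35199707, all on the minus strand. The Il6 window lies at chr5:30019727-30019756 on the plus strand. All are in 3′ UTRs.
Zfp36: cccttTATTTATgacgacttTATTTATtgt
Zfp36l1: cttatcaaaacgTATTTATtgccaaactat
Zc3h12c: tgctataatcatTATTTATaggaacaaaga
Tnf: tTATTTATTATTTATTTATTATTTATTTAT
Il6: atttatgattgaTATTTATtatttttatga
In the Tnf window 29 of the 30 bases belong to overlapping copies of the word. The Zfp36 window holds separate copies that cover 14 bases, and each of the other windows holds a copy of 7 bases. Over the whole 3′ UTR, which is 774 bases long in Zfp36 and 764 in Tnf, Zfp36 had 3 copies and Tnf 8.

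Stem-loops of the constitutive decay element type were searched with TTCNNNGAA, a stem arm, a loop of any bases and the complementary arm. Stem-loops with other arms were not searched. The word occurs in 35.8% of 14779 annotated 3′ UTRs. It is shown for Tnf, whose constitutive decay element is the textbook site of Roquin-1, and for Rc3h1 itself, with the word in capitals. The Tnf window is at chr17:35199578-35199607 (minus strand) and the Rc3h1 window at chr1:160968031-160968060 (plus strand).
Tnf: acagacatgttTTCTGTGAAaacggagctg
Rc3h1: atttgtttttgTTCTGTGAAtgaactttat
The capitals are the same letters in both genes. The arms are fixed by the search, so only the loop bases could have differed, and the Rc3h1 window shows 1 of its 7 matches. The 3′ UTR of Rc3h1, 7181 bases long, held 7 matches and that of Tnf held 1. Zfp36l1, Zfp36l2, Elavl1 and Il6 held 1 match each, and Zfp36, Zc3h12a, Zc3h12c and Khsrp had none.

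Levels are given as FPKM, which corrects for the length of the transcript and the size of the library, so that genes can be compared. The unit was inferred from the values. Both libraries held similar numbers of reads, estimated from the steps between low values as 11100000 in WT and 10960000 in SIRPα-KO. The targeted gene Sirpa was at 153.87 FPKM in WT and at 71.47 in the library labelled SIRPα-KO, so its transcript was lower there but present. Sex-linked genes differed between the pools: Xist was at 47.54 and 0.91 FPKM, and the Y-linked gene Eif2s3y was listed at 0 and at 21.41. Genotype and the sex of the mice therefore cannot be told apart. A gene was called when FPKM + 1 differed at least 2-fold between the libraries, among the 10092 genes that reached 1 FPKM in either library. By this rule 3.43% of these genes were higher in SIRPα-KO and 4.3% lower. Macrophage markers were high in both libraries, led by Lyz2 at 7106 FPKM in the WT library and 7208 in SIRPα-KO, with 9 of 10 not called and Csf1r called lower. Of 8 neutrophil markers 5 were called lower in SIRPα-KO, Mpo was at 2.38 and 3.34 FPKM, and the summed level of all 8 was 423 FPKM in the WT library and 195 in SIRPα-KO, with S100a9 the most abundant. Of 8 dendritic cell markers 3 were filtered out, Ccl22, Ccr7 and Dpp4 were called higher and Itgax lower. Their summed level was 51.2 and 184 FPKM, of which Ccl22 was 11.19 and 139.11. Lymphocyte markers summed to 13.2 and 9.39 FPKM, with Cd3g listed at 0 in both libraries and Cd4 leading, and stromal markers to 25.3 and 31.6 FPKM, with Kdr leading.

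Expression of the decay factors was split. Zfp36 and Zc3h12c were lower in SIRPα-KO, Zfp36l1 was higher, and the other 5 members lay within 1.26-fold of equality. By the call rule 1 member of 8 was higher and 2 were lower. Of all kept genes 7.73% were called, 3.43% higher and 4.3% lower. The median log2 ratio of the members was 0.05, and that of all kept genes was 0.06. With 8 genes and 1 library per genotype these counts describe the libraries and are no test.

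**Figure D1:**
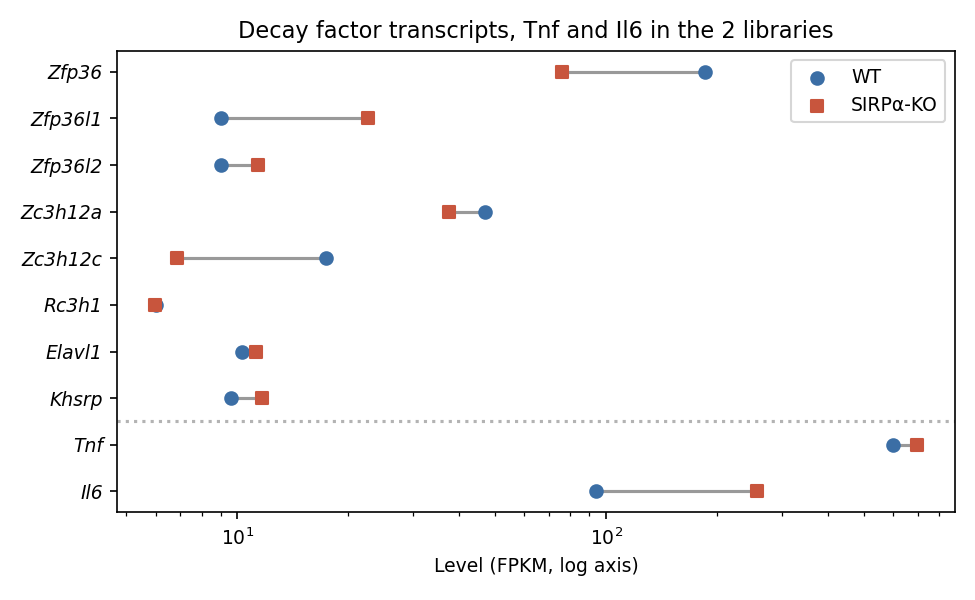
Level in FPKM (log axis) of the 8 decay factors and, below the dotted line, of Tnf and Il6 in the WT library (circles) and the SIRPα-KO library (squares), with 1 library per genotype and no error bars. Zfp36 and Zc3h12c are lower in SIRPα-KO, Zfp36l1 and Il6 are higher, and the symbols of Rc3h1 coincide.

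Zfp36, gene number 22695, was the most abundant member in both libraries, at 185.97 FPKM in the WT library and 75.78 in SIRPα-KO. It ranked 439th of all genes by level in WT and 970th in SIRPα-KO. The level was 2.45-fold lower in SIRPα-KO, with a log2 ratio of -1.28 on the log2(FPKM + 1) scale, and 2.5% of kept genes had a lower ratio. These levels stand for about 3643 and 1466 reads, on the 1765 exonic bases inside the RefSeq gene span. The 95% exact binomial interval of the ratio of SIRPα-KO to WT, 0.407, ran from 0.383 to 0.433, and such an interval covers counting error only.

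Zfp36l1, gene number 12192, went the other way. It was at 9 FPKM in the WT library and 22.55 in SIRPα-KO, 2.51-fold higher, with a log2 ratio of 1.24, and 97.8% of kept genes had a lower ratio. About 298 and 737 reads lie behind these levels. Zfp36l2, gene number 12193, was at the same level as Zfp36l1 in WT, 9 FPKM, and at 11.35 FPKM in SIRPα-KO. Its log2 ratio of 0.30 was short of the call, and 46.5% of kept genes differed more.

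The make-up of this family differed between the libraries. The summed level of the 3 paralogues was 204 FPKM in the WT library and 109.7 in SIRPα-KO, 1.86-fold lower. Zfp36 made up 91.2% of the sum in WT and 69.1% in SIRPα-KO. The share of Zfp36l1 was 4.41% in WT and 20.6% in SIRPα-KO, and that of Zfp36l2 was 4.41% and 10.3%. Zfp36 remained the main transcript of the family in both libraries.

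**Figure D2:**
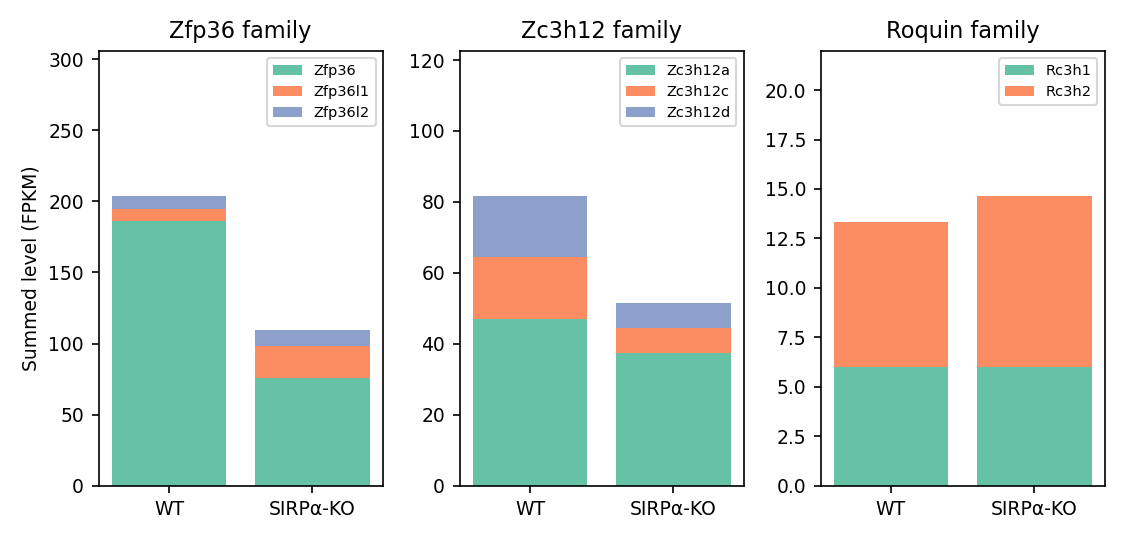
Summed level in FPKM of the Zfp36, Zc3h12 and Roquin families in the WT and SIRPα-KO libraries, stacked by gene, with a separate linear axis for each family. The Zfp36 sum is 204 against 109.7 FPKM and the Zc3h12 sum 81.7 against 51.5, and Zc3h12b, under 1 FPKM in both libraries, is not drawn.

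Among the Regnase genes, Zc3h12c differed more than Zc3h12a. Zc3h12a, gene number 230738, was at 46.97 FPKM in the WT library and 37.47 in SIRPα-KO, with a log2 ratio of -0.32 that was not called. Zc3h12c, gene number 244871, was at 17.38 FPKM in the WT library and 6.86 in SIRPα-KO. It was 2.53-fold lower, a log2 ratio of -1.23, with about 1183 and 461 reads. Its relative Zc3h12d, which is not one of the 8 members, was close to Zc3h12c in both libraries, at 17.39 FPKM in the WT library and 7.1 in SIRPα-KO, and was also called lower. Zc3h12a made up 57.5% of the summed level of the family in WT and 72.8% in SIRPα-KO. The sum was 81.7 FPKM in the WT library and 51.5 in SIRPα-KO.

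Rc3h1, gene number 381305, was the member closest to equality. It was at 6.01 FPKM in the WT library and 5.99 in SIRPα-KO, and 99.3% of kept genes differed more. Its paralogue Rc3h2 was at 7.34 and 8.67 FPKM. The counting interval of the Rc3h1 ratio ran from 0.898 to 1.11.

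Both RNA-binding proteins without CCCH fingers were short of the call. Elavl1, gene number 15568, was at 10.31 FPKM in the WT library and 11.22 in SIRPα-KO, a ratio of 1.09 whose counting interval, 0.975 to 1.22, included equality. The chemokine gene Ccl25 overlaps Elavl1 on the opposite strand and was at 0.82 and 0.33 FPKM, and the use of strand in counting is not given. Annotated genes without a value here overlap Zfp36, Zfp36l1, Zfp36l2, Zc3h12c and Khsrp on the opposite strand, and Rc3h1 on the same strand. Khsrp, gene number 16549, was at 9.58 FPKM in the WT library and 11.69 in SIRPα-KO, with a log2 ratio of 0.26. In WT, Zfp36l1, Zfp36l2, Khsrp and Elavl1 lay between 9 and 10.31 FPKM. In SIRPα-KO, Zfp36l1 stood at 22.55 FPKM, above the other 3 of these genes, which lay between 11.22 and 11.69.

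**Figure D3:**
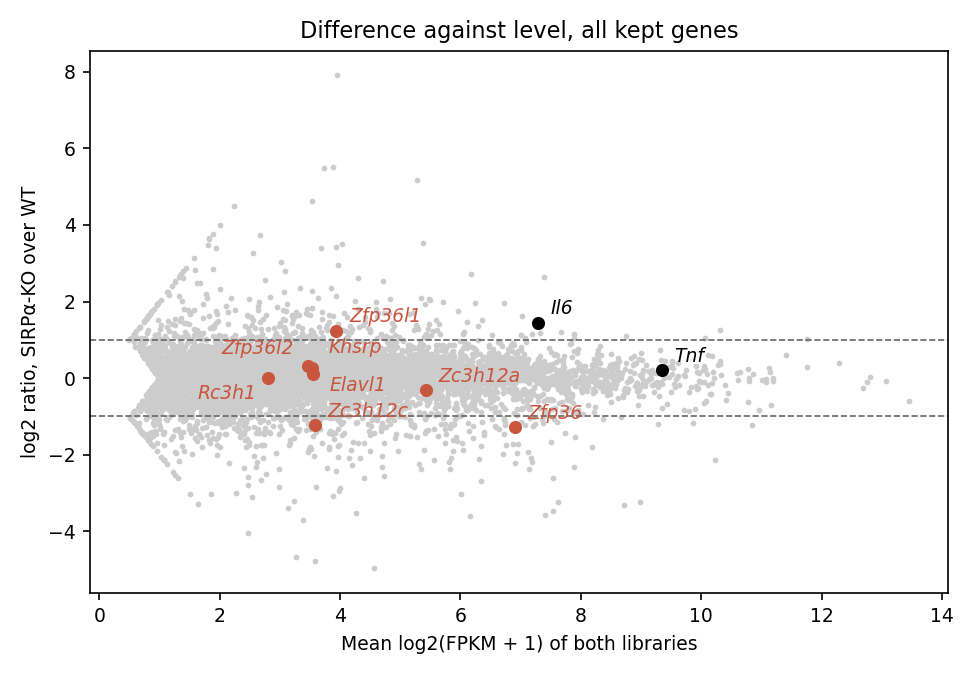
The log2 ratio of SIRPα-KO over WT on log2(FPKM + 1) values (vertical) against the mean log2(FPKM + 1) of both libraries (horizontal) for 10092 kept genes (grey), with the 8 decay factors in red, Tnf and Il6 in black and dashed lines at the 2-fold limits. Zfp36 and Zc3h12c lie below the lower line, Zfp36l1 and Il6 above the upper line, and the other members between the lines.

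In bulk RNA, fewer cells of a type and less RNA per cell cannot be told apart. Over all kept genes, 4.3% were called lower in SIRPα-KO and 3.43% higher. In SIRPα-KO, where Zfp36 and Zc3h12c were lower and Zfp36l1 was higher, 5 of 8 neutrophil markers were called lower and 0 higher. Of 5 kept dendritic cell markers 3 were called higher there and 1 lower. The part of these cells in the members' levels was not tested. Shared sequence was small for the members: 1.76% of the 50-base words of Zfp36 and 0.177% of those of Zc3h12a occur in another gene of the tables, and 0% for the other 6.

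Start regions are shown for Zfp36 and Zfp36l1, the paralogues that differed in opposite directions, from the RefSeq promoter table (GRCm38.p6), on the gene's own strand and 5′ to 3′. The table held 7 of the 8 members. For Zfp36l1 the run is the 250 bases before the annotated start, chr12:80113014-80113263, and for Zfp36 it is the last 30 bases of that window, chr7:28379229-28379258, both on the minus strand. The Zfp36 window lies within an exon of a longer GENCODE transcript, so less of it is printed. Zc3h12c has windows at separate starts in the table and is not shown. Capitals mark TTCNNNGAA, the core of STAT-binding sites, TATAAA and CCAAT. These and TGACGTCA, the cyclic AMP response element, were searched on both strands.
Zfp36: gccacagcctgacTTCTGCGAAccgacagt
Zfp36l1: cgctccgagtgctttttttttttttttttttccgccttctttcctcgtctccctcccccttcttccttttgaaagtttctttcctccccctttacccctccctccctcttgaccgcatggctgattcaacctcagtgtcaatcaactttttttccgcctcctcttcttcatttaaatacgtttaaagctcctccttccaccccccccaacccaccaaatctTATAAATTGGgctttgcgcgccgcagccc
The Zfp36 run has a match to TTCNNNGAA that begins 17 bases before the start, its single match to the 4 motifs in 250 bases. Among 32851 promoters of this length 7.02% held that word. The Zfp36l1 run has TATAAA beginning 29 bases before the start and, overlapping its end, CCAAT on the opposite strand beginning 24 bases before it. TATAAA occurred in 12.4%, CCAAT in 33.8% and TGACGTCA in 1.55% of promoters.

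The wider decay machinery was set beside the members with 7 gene lists, which hold 115 kept genes other than the members. Of these, 0 were called higher and 1 lower, Zc3h12d, together 0.87% against 7.73% of all kept genes. With a pseudocount of 5, 0 were called in either direction. Their median log2 ratio was 0.14, and 83 of the 115 were above WT in SIRPα-KO (72.2%), against 56.1% of all kept genes. The relatives of the members had 9 kept genes of 14 in the tables, with a median of 0.12.

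By role, the lists of RNA-binding proteins, deadenylation, decapping, exosome and nonsense-mediated decay held no called gene, although 3 genes were past 2-fold in FPKM without the pseudocount. These were the RNA-binding protein gene Igf2bp3 (5.26 and 11.34 FPKM), Lsm2 of the decapping list (3.07 and 6.61) and the exosome gene Exosc1 (1.87 and 4.06), and all 3 were called higher with a pseudocount of 0.1. The list of other AU-rich and stem-loop RNA-binding proteins also holds poly(A)-binding protein genes, and had a median log2 ratio of 0.17 over 24 genes. Its most abundant gene, Pabpc1, is one of these, at 337 FPKM in the WT library and 462 in SIRPα-KO. Arid5a, which protects Il6 mRNA from Regnase-1, was at 21.48 and 28.62 FPKM. Deadenylases and their recruiters had a median of 0.09 over 18 genes. Cnot1, the scaffold of the deadenylase that tristetraprolin recruits, was at 19.61 and 21.08 FPKM, and Btg1, a recruiter and the most abundant of this list, at 34.61 and 64 FPKM. Decapping and 5′ to 3′ decay genes had a median of 0.28 over 19 genes, with Xrn2, a nuclear exonuclease, at 54.48 and 67.13 FPKM. The exosome and Ski complex had a median of 0.18 over 16 genes, with the helicase Skiv2l2 at 12.13 and 18.61 FPKM. Nonsense-mediated decay genes had a median of 0.14 over 10 genes. Upf1, the helicase that works with Regnase-1, was at 12.58 and 13.93 FPKM.

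Kinases, phosphatases and proteases that act on the members' proteins, with their partner proteins, had 19 kept genes with a median log2 ratio of 0.00, with 0 called. Mapkapk2, which encodes MK2, the kinase that phosphorylates tristetraprolin, was at 161.85 FPKM in the WT library and 114.15 in SIRPα-KO, with a log2 ratio of -0.50. Dusp1, a phosphatase that ends p38 signalling upstream of MK2, was at 48.94 and 37.74 FPKM. Ppp2ca, the catalytic subunit of the phosphatase that opposes MK2 on tristetraprolin, was at 133.72 and 129.78 FPKM. Ywhaz, a 14-3-3 protein with the highest mean level of the list, was at 154 and 168 FPKM. Malt1, the protease that cleaves Regnase-1 and Roquin-1, was at 112.45 and 94.15 FPKM. Igf2bp3, Lsm2, Exosc1, Arid5a, Cnot1, Upf1, Mapkapk2, Dusp1, Ppp2ca and Malt1 were named after their values were seen.

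**Figure D4:**
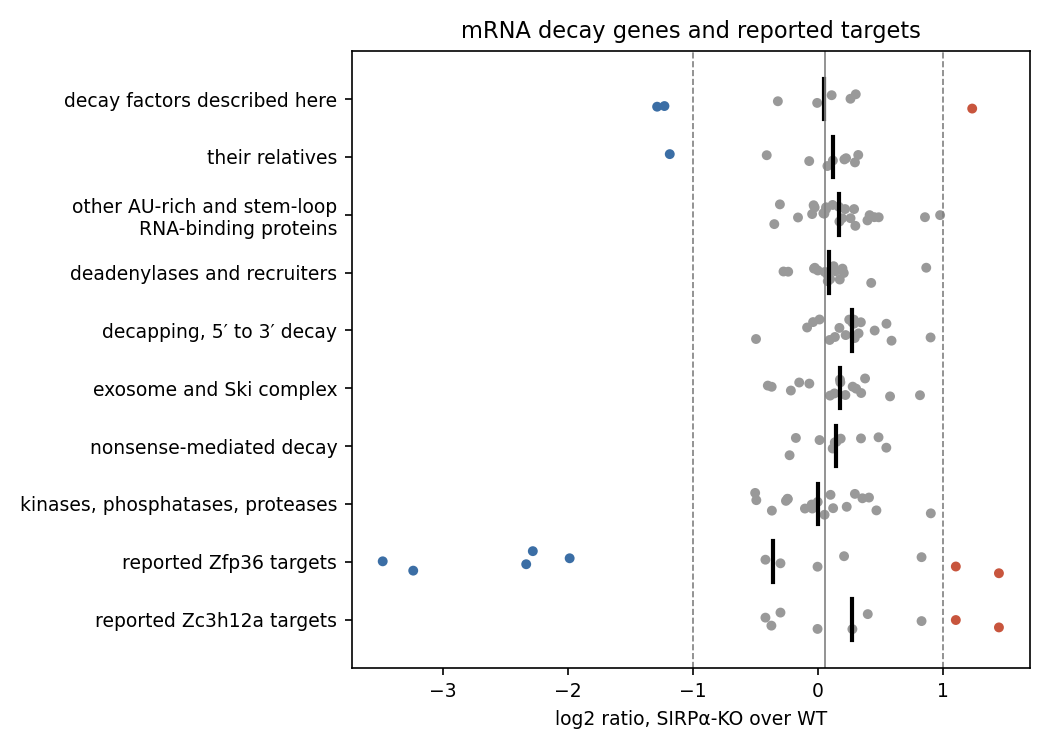
The log2 ratio of SIRPα-KO over WT for the kept genes of each list (points, spread vertically at random), the median of each list (black bar), the 2-fold limits (dashed) and the median of all kept genes (grey line). Genes called higher are red and genes called lower are blue; outside the members and the reported targets, Zc3h12d is the only called gene.

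Tnf and Il6 differed by unequal amounts beside these factors. Tnf was at 601 FPKM in the WT library and 696 in SIRPα-KO, with a log2 ratio of 0.21 that was not called, and Zfp36 was 2.45-fold lower. Il6 was at 93.6 and 257 FPKM, 2.75-fold higher, and Zc3h12a was 1.25-fold lower. Within a library, the level of Tnf was 3.23 times that of Zfp36 in WT and 9.18 times in SIRPα-KO. The level of Il6 was 1.99 times that of Zc3h12a in WT and 6.87 times in SIRPα-KO. With the factors exchanged, Il6 was 0.503 times Zfp36 in WT and 3.4 times in SIRPα-KO. Tnf was 12.8 times Zc3h12a in WT and 18.6 times in SIRPα-KO. These ratios restate levels already given and show no link between a factor and a target. Steady-state levels do not separate synthesis from decay, and mRNA half-life was not measured.

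Reported targets of Zfp36 went both ways. Of 12 kept, 2 were higher, 5 lower and 5 neither, and the median log2 ratio was -0.36. The called share was 58.3%, against 7.73% of all kept genes (3.43% higher and 4.3% lower). The list was chosen with earlier results of these data known, so this share is no test. Higher were Il6 and the chemokine Cxcl1, at 0.66 FPKM in the WT library and 2.57 in SIRPα-KO. Cxcl1 passed the filter only through SIRPα-KO, with about 7 and 27 reads, and was not called with a pseudocount of 5 or kept at a minimum of 5 FPKM. The 3 lower genes with the largest ratios were the chemokines Ccl4, Ccl3 and Ccl2, with log2 ratios of -3.48, -3.23 and -2.33. The other lower genes were Il10, an anti-inflammatory cytokine (-2.28), and Il1a (-1.98). Ptgs2, which encodes cyclooxygenase-2, was at 239 and 426 FPKM, short of the call. Reported targets of Zc3h12a had a median of 0.28 over 9 kept genes, with 2 higher, Il6 and the same low Cxcl1, and 0 lower. The called share of this list was 22.2%. Il12b was at 278 and 367 FPKM and Nfkbiz, a regulator of secondary response genes, at 81.0 and 98.4. The target lists share 6 genes.

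The AU-rich word TATTTAT was counted in the longest annotated 3′ UTR of each gene. It occurred in 29.3% of 14779 UTRs. Zfp36, Zfp36l1 and Zfp36l2 each had 3 copies, Elavl1 had 8, Rc3h1 and Zc3h12c had 2 each, and Zc3h12a and Khsrp had none. The 3 called members thus carry the word, as do 3 of the 5 members that were not called. Il6 had 1 copy. Among kept genes with 3 or more copies, 8.97% of 390 were called, 16 higher and 19 lower, with a median log2 ratio of 0.11. Among those with none, 6.66% of 6635 were called, with a median of 0.04. UTR length moved with the number of copies, with a median of 3170 bases for 3 or more and 866 for none, and its part in these shares was not tested.

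**Figure D5:**
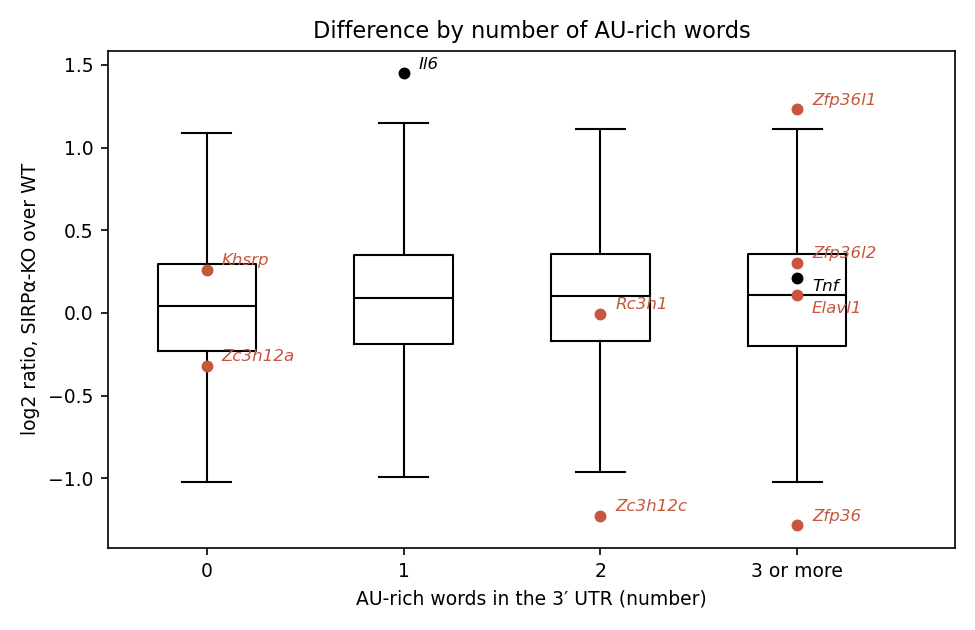
The log2 ratio of SIRPα-KO over WT for kept genes by number of TATTTAT words in the longest 3′ UTR (boxes give the quartiles, whiskers reach 1.5 times the box height, genes beyond them are not drawn), with the 8 decay factors in red and Tnf and Il6 in black. The boxes overlap in all 4 classes, and Zfp36 and Zfp36l1, with 3 words each, lie at opposite ends.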

How the data were processed

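The authors deposited 1 table per library, with a value per gene taken here as FPKM; the headers name no unit. Steps between low values scaled with transcript length: 68.6% of 1149 in WT and 66.5% of 1141 in SIRPα-KO lay within 0.15 of a whole read, against 31.1% and 31.6% with lengths shuffled. Depth is therefore an estimate, and no count test was run. The submitters' processing notes name mm9, R 3.3.3 and DESeq2 without roles; the aligner, counter and strand setting were not given in those sources.

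Ratios are differences of log2(FPKM + 1), which makes differences of low genes look smaller. Python 3.11.15, pandas 2.3.3 and SciPy 1.17.1 were used. Calls were tried on simulated reads with counting error only, which hold no differences between animals, cultures or library preparations. Intervals are Clopper-Pearson on estimated reads. The members and lists were chosen with earlier results of these data known. Named were the members, Tnf, Il6, Sirpa, up to 3 called genes per list and direction (otherwise the most abundant) and the leading marker of each cell type (1 gene taken by this rule is not reported here); 2 libraries give no measure of a like pattern. Other names and the stem-loop and promoter motifs came later. Sequences are from GENCODE M21 and RefSeq on GRCm38, a later build than mm9.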

Additional observations from a re-analysis of the deposited data

How the results depend on the processing

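With 1 library per genotype no replicate could be left out, and no call has a replicate check. No paired analysis was possible because each genotype has 1 library. Alternatives were pseudocounts of 0.1 and 5, no filter or a minimum of 5 FPKM, median-of-ratios and trimmed mean scaling, and calls at 1.5-fold and 3-fold. With a pseudocount of 5 the members called were 0 higher and 1 lower (Zfp36), since Zfp36l1 came to 0.98 and Zc3h12c to -0.92 on the log2 scale; at 3-fold they were 0 and 0. Under the other alternatives 1 was higher and 2 lower. The median of the members ran from -0.01 (median-of-ratios scaling) to 0.06 (pseudocount 0.1), so its sign depends on the scaling, which shifts all genes by 0.07. Of 60 ratios of single genes (the members, Tnf and Il6 under 6 alternatives), 58 kept their sign and their side of 2-fold, and the other 2 are those of Zfp36l1 and Zc3h12c above. Among the machinery and target lists together (130 kept genes, 2 higher and 6 lower), the higher genes numbered 5 with a pseudocount of 0.1 (adding Igf2bp3, Lsm2 and Exosc1), 1 with a pseudocount of 5 and 1 with the minimum of 5 FPKM (both without Cxcl1), 10 at 1.5-fold and 0 at 3-fold. The lower genes numbered 5, without Zc3h12d, with a pseudocount of 5 and at 3-fold, and 6 otherwise. All kept genes called numbered 780, against 1265 with a pseudocount of 0.1, 334 with 5, 2135 at 1.5-fold and 270 at 3-fold. For genes with 3 or more AU-rich words the percent called was 10.8 with the transcript of the longest coding sequence and 10.5 with the word TATTTATT.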
